A study of Desmophyllum pertusum with 36 samples.

Results

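In Lophelia pertusa, a cold-water coral that is also called Desmophyllum pertusum, 100 of 75743 measured transcripts are described here that were higher at pH 7.6 than at pH 7.9 in every colony at every sampling week. Levels are in CPM, a transcript's counts scaled to a common library total. The 100 were selected on their measured values. The difference d was taken as log2(CPM + 0.5) at pH 7.6 minus the same at pH 7.9, in each of 9 pairs of libraries that share a colony and a week. Transcripts with a mean of at least 1 CPM and outside the 100 of highest mean CPM were eligible, which left 41829. Of these, 206 had a d above 0 in all 9 pairs, or 0.492% of those eligible, and 195 had a d below 0 in all 9. The 100 are those with the largest mean d among the 206. On this scale the pseudocount of 0.5 understates the fold of scarce transcripts. Their difference between the pH levels is therefore how they were chosen. It is given below as a description, and the counts of calls printed for that contrast, or for how it varies between weeks or colonies, support nothing.

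The study kept fragments of 3 genetically distinct colonies, numbered 1, 3 and 4, at pH 7.6 or pH 7.9. Polyps were taken for RNA sequencing at week 2, week 4.5 and week 8.5. There were 18 libraries, 1 for each colony, pH and week, so that each pH at each week had 3 libraries. The title of the study speaks of low pH, and no other treatment, allele or agent is named for any group. The labels number the time points 1 to 3, which were assigned to the weeks in the order of the design text, and do not say whether fragments stood in separate tanks. Each colony was sampled repeatedly, once at each week and pH, and p-values measure only the spread between these libraries, which may in part be technical.

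Stony corals build a skeleton of aragonite, a form of calcium carbonate, from a fluid between the tissue and the skeleton that their cells keep at a raised pH by moving ions across the membrane. Lower seawater pH reduces the carbonate ions from which aragonite forms and is thought to make this work more costly. Lophelia pertusa builds deep reefs without the photosynthetic algae that many shallow corals host, and lives on captured food. The deposited table lists transcripts by number and does not pair the numbers with gene names, so neither the function of a transcript nor markers of the polyp tissue could be read from it.

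Library totals ran from 18042191 to 25651213 counts. Before any result, the libraries must be set against their labels. Grouped by the correlation of their transcript levels, they fell into 3 sets that did not follow the colony labels in full. The first set held the 3 libraries of colony 1 at pH 7.6, the pH 7.9 library of colony 1 at week 2, and the pH 7.9 libraries labelled colony 3 at weeks 4.5 and 8.5. The second held the 3 libraries of colony 3 at pH 7.6 and the pH 7.9 libraries labelled colony 1 at weeks 4.5 and 8.5. The third held all 6 libraries of colony 4 and the pH 7.9 library labelled colony 3 at week 2. Thus 5 libraries, all at pH 7.9, lay outside the set of most libraries of their colony, and only 4 of the 9 pairs compared libraries of the same set. These 4 pairs were colony 1 at week 2 and colony 4 at all weeks. The colony labels are used as given. Whether labels were exchanged between some of the libraries was not tested, and if they were, the pairs and the colony named beside a value would change. In the other 5 pairs, a difference between pH levels and a difference between library sets cannot be told apart.

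The 100 transcripts covered a wide range of differences. Their mean d ran from 0.81 to 4.73 with a median of 1.28, against a median of 0.0081 over all 41829 eligible transcripts. Mean d was at least 3 in 3 transcripts, at least 2 in 12, between 1 and 2 in 61 and below 1 in 27. The smallest of a transcript's 9 differences had a median of 0.19. It was below 0.1 in 31 transcripts and above 0.5 in 11. Most of the 100 therefore had at least 1 pair in which the pH levels lay close together. In 6 of the 100, at least 1 library had 0 counts, in each case a library at pH 7.9. Their mean level ran from 1.02 to 534 CPM with a median of 13.8 CPM, with 42 transcripts below 10 CPM, 52 between 10 and 100 CPM and 6 at 100 CPM or above. The last one inside the 100 by mean d was Transcript_3196, with a mean d of 0.81 and a range over pairs from 0.10 to 1.82. The first one outside, Transcript_11101, had a mean d of 0.80 and a range from 0.30 to 1.75.

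**Figure D1:**
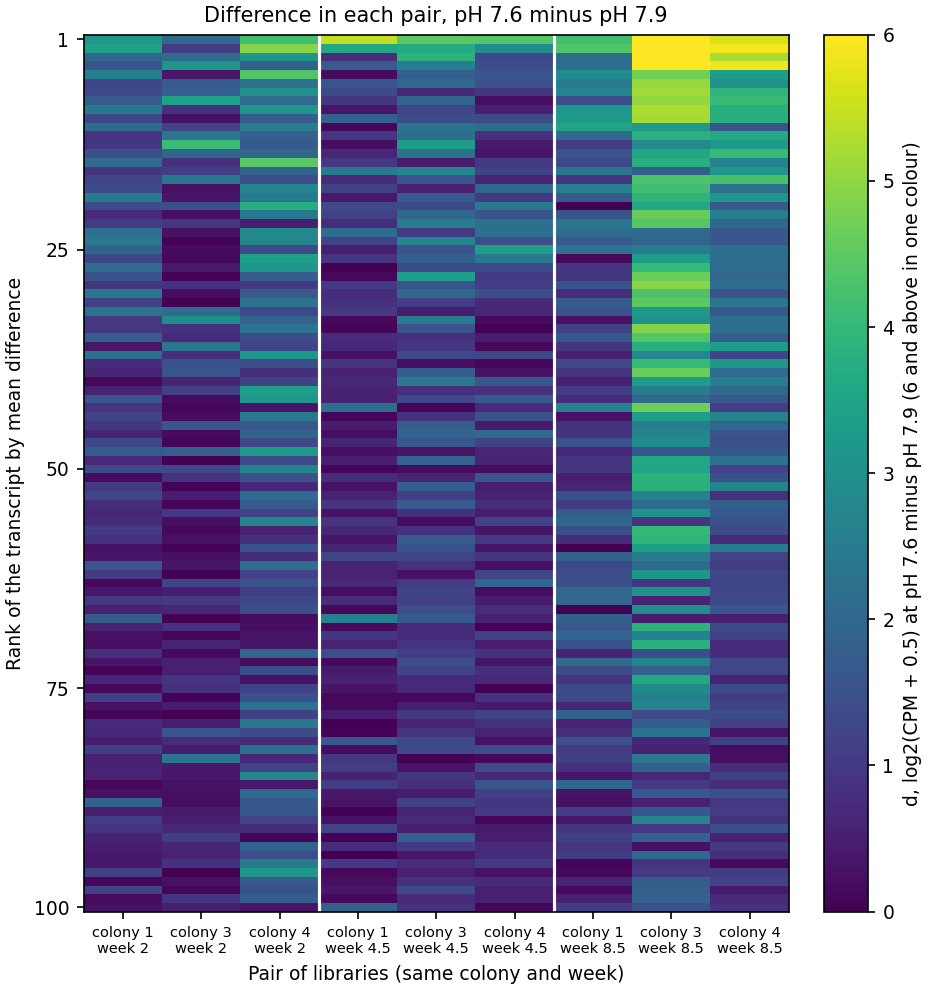
Difference d between pH 7.6 and pH 7.9, on the log2(CPM + 0.5) scale, for each of the 100 transcripts (rows, ranked by mean d from 1 to 100) in each of the 9 pairs of libraries (columns, grouped by week). Values of 6 and above share one colour. The column of colony 3 at week 8.5 is the brightest, and it holds the largest d of 66 transcripts.

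The largest difference was that of Transcript_2635. At pH 7.9 its level was 35.97, 51.7 and 31.2 CPM in colonies 1, 3 and 4 at week 2, then 2.83, 1.12 and 3.78 CPM at week 4.5, and 33.6, 1.74 and 46.5 CPM at week 8.5. At pH 7.6 the levels were 333, 215 and 573 CPM at week 2, then 144, 35.8 and 90.8 CPM at week 4.5, and 618, 1150.5 and 2352 CPM at week 8.5. Within each week, all 3 libraries at pH 7.6 lay above all 3 at pH 7.9, although the lowest library at pH 7.6 lay below the highest at pH 7.9 across weeks. Its mean d was 4.73 ± 1.93 (SD over 9 pairs), with a smallest d of 2.05. The mean d was 3.14 at week 2, 4.78 at week 4.5 and 6.28 at week 8.5, and no other of the 100 had so large a gain from week 2 to week 8.5.

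Transcript_66519 came next. Its levels at pH 7.9 were 6.21, 7.49 and 4.14 CPM in colonies 1, 3 and 4 at week 2, then 0.928, 0.342 and 0.897 CPM at week 4.5, and 1.28, 0.194 and 2.80 CPM at week 8.5. The libraries at pH 7.6 gave 71.4, 15.9 and 139 CPM at week 2, then 16.6, 10.3 and 9.95 CPM at week 4.5, and 36.5, 104 and 201 CPM at week 8.5. The lowest of its 9 libraries at pH 7.6 lay above the highest of its 9 at pH 7.9, and its mean d was 4.12 ± 1.79 (SD over 9 pairs). Among the 100, 6 transcripts had no overlap between all 9 libraries of one pH and all 9 of the other, where the eligible transcripts as a whole held 7 such (0.0167%). The others overlapped between pH levels once weeks and colonies were put together. In the opposite direction, 1 eligible transcript had no overlap.

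The member of highest mean level was Transcript_32004, at 534 CPM. The file gives no transcript lengths, so levels are compared between libraries and not between transcripts. At pH 7.9 this transcript stood at 462, 403 and 334 CPM in colonies 1, 3 and 4 at week 2, then at 291, 292 and 299.8 CPM at week 4.5, and at 301, 241 and 361 CPM at week 8.5. At pH 7.6 it stood at 557, 437 and 423 CPM at week 2, then at 569, 478 and 679 CPM at week 4.5, and at 1168, 1507 and 808 CPM at week 8.5. The groups overlapped at week 2 and were apart at weeks 4.5 and 8.5. Its mean d was 1.04 in all, and 0.24, 0.95 and 1.92 at weeks 2, 4.5 and 8.5.

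The steadiest differences over the 9 pairs were those of Transcript_7626 and Transcript_65541. For Transcript_7626, the 9 libraries at pH 7.9 ran from 19.1 to 78.3 CPM and those at pH 7.6 from 27.7 to 155 CPM, so that the groups overlapped widely. Within pairs its d ran from 0.42 to 1.47, with a mean of 0.88 ± 0.33 (SD over 9 pairs). Transcript_65541 was scarce, at 0.419 to 3.77 CPM at pH 7.9 and 1.05 to 5.37 CPM at pH 7.6, again with overlap. Its mean d was 0.85 ± 0.45 (SD over 9 pairs), and its d of 1.86 in colony 4 at week 2 stood apart from the other 8.

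**Figure D2:**
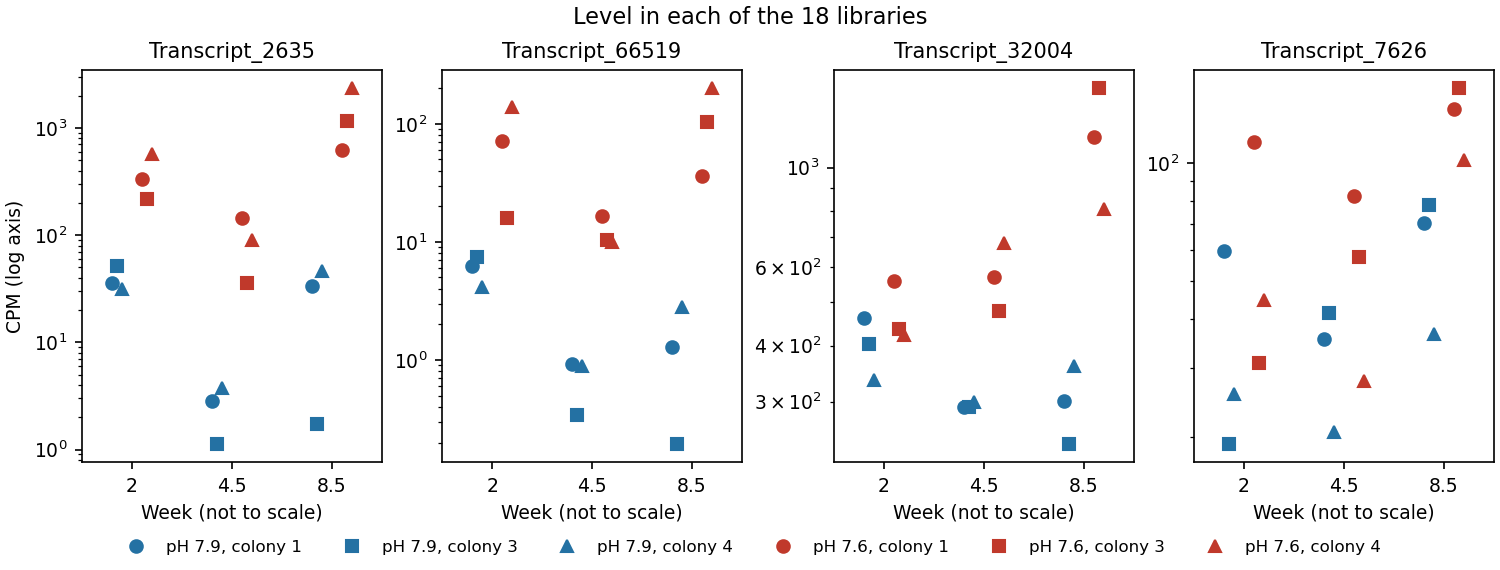
Level in CPM (log axis) of 4 of the 100 transcripts in each of the 18 libraries, by week (evenly spaced, not to scale), pH (colour) and colony (marker). Transcript_66519 shows no overlap between the pH levels, Transcript_7626 shows wide overlap, and both Transcript_2635 and Transcript_32004 are furthest apart at week 8.5.

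The 9 pairs did not contribute alike to the differences of the 100. The median d over the 100 was 0.97, 0.59 and 1.23 in colony 1 at weeks 2, 4.5 and 8.5. In colony 3 it was 0.53, 1.19 and 2.94, and in colony 4 it was 1.69, 0.85 and 1.55. The pair of colony 3 at week 8.5 held the largest d of 66 transcripts, had a d above 1 in 88 of them, and carried 41.5% of the spread of d about each transcript's mean. It was also the pair in which all eligible transcripts differed most, with a SD of d of 1.27 against 0.41 to 0.98 in the other pairs, and its libraries lay in different sets. The part of that spread in the large d of the 100 was not tested. Without this pair the median of mean d over the 100 was 1.12 in place of 1.28. The smallest d of a transcript lay most often in colony 3 at week 2, which held it in 35 transcripts, then in colony 1 at week 4.5 with 22 and colony 4 at week 4.5 with 20.

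**Figure D3:**
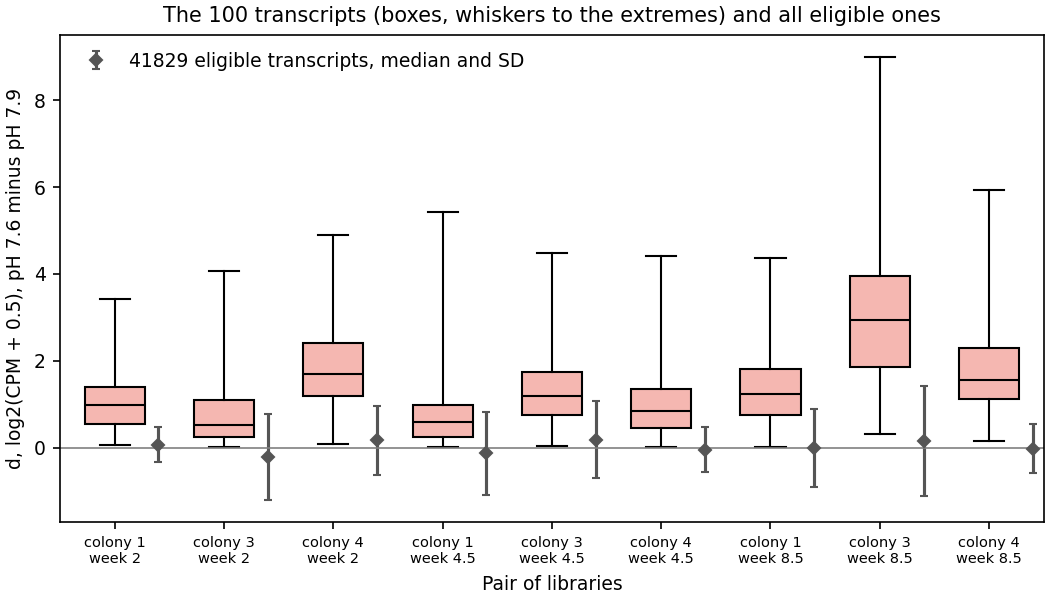
Distribution of d on the log2(CPM + 0.5) scale in each of the 9 pairs. Boxes show the quartiles and median of the 100 transcripts with whiskers to the extremes, and diamonds with bars show the median and SD of all eligible transcripts. The box of colony 3 at week 8.5 lies highest, with a median of 2.94, and the bar beside it is the longest, with a SD of 1.27.

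Over the weeks, the median of mean d was 1.14 at week 2, 0.90 at week 4.5 and 1.91 at week 8.5. The mean d was largest at week 8.5 in 82 transcripts, at week 2 in 14 and at week 4.5 in 4. It was larger at week 8.5 than at week 2 in 85 transcripts, and larger within each of the 3 colonies in 41. With colony 3 left out, whose 3 pairs all crossed library sets, the medians were 1.32, 0.73 and 1.45 at weeks 2, 4.5 and 8.5. The largest difference then lay at week 8.5 in 57 transcripts, and 61 had a larger mean d at week 8.5 than at week 2. The pairs of colony 1 at weeks 4.5 and 8.5, which stay in, also crossed library sets. Only colony 4 had pairs within a set at all weeks. Its median d was 1.69, 0.85 and 1.55 at weeks 2, 4.5 and 8.5, and so was not larger at week 8.5 than at week 2. A pH effect that differs between weeks was called in 0 of the 100 and in 0.0% of all 56223 transcripts tested, by edgeR's quasi-likelihood test with Benjamini-Hochberg adjustment at an adjusted p of 0.05. At an unadjusted p of 0.05, that test gave 31 of the 100 and 1769 of all transcripts, and DESeq2 called 2 of the 100 and 39 of all. It is built from the same d that chose the transcripts, and nothing is read from these counts. The largest decrease of mean d was that of Transcript_81507, with 2.27 at week 2 and 1.31 at week 8.5. It stood at 49.2, 11.8 and 51.6 CPM at pH 7.6 in colonies 1, 3 and 4 at week 2, where the libraries at pH 7.9 gave 14.7, 3.00 and 4.89 CPM. Colony 3 at pH 7.6 thus lay below colony 1 at pH 7.9.

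By colony, the median of mean d over the 100 was 0.90 in colony 1, 1.62 in colony 3 and 1.43 in colony 4. Colony 3 had the largest mean d in 50 transcripts, colony 4 in 42 and colony 1 in 8. A pH effect that differs between colonies was called in 0 of the 100 by edgeR, where 3.78% of all tested transcripts were called. At an unadjusted p of 0.05, 10 of the 100 and 11709 of all transcripts passed, and DESeq2 called 2 of the 100 and 5919 of all. Since the rule required a difference of the same sign in all 3 colonies, nothing is read from that count. Transcript_56288 had the largest excess in colony 1, with a mean d of 2.04 there against 0.72 in colony 3 and 0.40 in colony 4. For colony 3 it was Transcript_44410, with a mean d of 3.42 there against 0.74 in colony 1 and 1.80 in colony 4. For colony 4 it was Transcript_5658, with a mean d of 2.67 there against 0.78 in colony 1 and 1.77 in colony 3. Transcript_5658 stood at 566 CPM at pH 7.6 and 52.3 CPM at pH 7.9 in colony 4 at week 2, while in colony 3 at that week its level at pH 7.6 was 21.8 CPM and lay close to that at pH 7.9, with a d of 0.13.

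Paired by library set in place of colony label, the libraries gave 8 pairs of the same set and week, of which 4 are pairs of the rule. In the 4 new ones, the median d over the 100 was 1.14 and 2.12 in the first set at weeks 4.5 and 8.5, and 0.66 and 1.89 in the second set at the same weeks. All 100 transcripts were higher at pH 7.6 in both new pairs of the first set, where 53.0% and 54.2% of eligible transcripts were. In the second set, 86 were higher at week 4.5, against 47.0% of those eligible, and 99 at week 8.5, against 50.5%. Over all 8 pairs, 85 of the 100 were higher at pH 7.6, as were 1147 eligible transcripts, or 2.74% of those eligible. These pairs use the same libraries as the rule and are no independent check of it. Within week 4.5 or 8.5, a transcript's new values of d have the same sum as its d in colonies 1 and 3. The rule thus fixed part of the outcome. Fitted to all 18 libraries, the pH contrast over all weeks called 36 of the 100 as higher at pH 7.6 by edgeR, against 0.135% of all transcripts tested, which the choice of the 100 fixes in part and from which nothing is read.

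Together, the 100 transcripts took a small share of each library. At pH 7.6 they held 0.417%, 0.286% and 0.670% of the counts in colonies 1, 3 and 4 at week 2. They held 0.259%, 0.261% and 0.255% at week 4.5, and 0.511%, 0.823% and 0.786% at week 8.5. Abundant transcripts weigh most in this sum. In colony 4 at week 8.5 and pH 7.6, Transcript_2635 and Transcript_32004 had 57524 and 19770 of that library's 24462490 counts. At pH 7.9 the 9 shares ran from 0.0891% in colony 3 at week 8.5 to 0.193% in colony 1 at week 2, all below the lowest at pH 7.6. Within each pair, the rule itself makes the share higher at pH 7.6. The means at pH 7.6 were 0.458% ± 0.195, 0.258% ± 0.00318 and 0.707% ± 0.170 at weeks 2, 4.5 and 8.5 (SD, n = 3 colonies). At pH 7.9 they were 0.181% ± 0.0138, 0.122% ± 0.0212 and 0.141% ± 0.0462 (SD, n = 3 libraries, 1 for each colony label). At week 2 and pH 7.9, the libraries labelled colony 3 and colony 4 lay in the same set. In RNA of whole polyps, more cells of a type and more RNA per cell cannot be told apart, and this holds for every level given here.

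**Figure D4:**
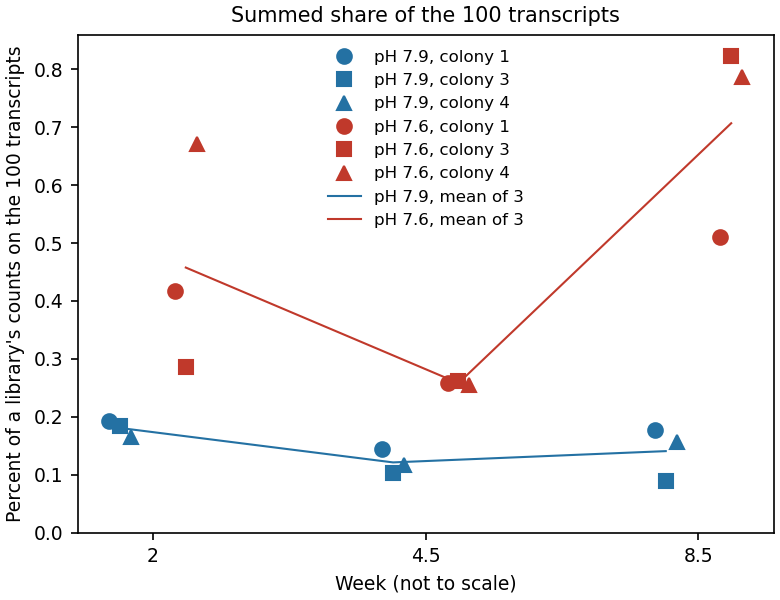
Share of each library's counts, in percent, that fell on the 100 transcripts, by week (evenly spaced, not to scale), pH (colour) and colony (marker), with lines through the means of 3 libraries. At week 4.5 the 3 libraries at pH 7.6 lie together between 0.255% and 0.261%, and at week 8.5 they lie between 0.511% and 0.823%.

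The change between weeks, averaged over both pH levels, was not a criterion of the rule. It is not independent of the rule either, because the average holds the same levels at pH 7.6 and pH 7.9 that entered d, and the counts below are to be read with that limit. The 100 were mostly lower at week 4.5 than at week 2. Of the 100, 86 had a log2 fold change below 0 from week 2 to week 4.5 and 14 had one above 0. Among eligible transcripts, 49.7% had one above 0. The median was -0.86 over the 100 against 0.02 over all transcripts tested. In 36 of the 100, all 6 libraries of week 4.5 lay below their partner of week 2 of the same colony and pH, and in 0 all 6 lay above. Of the eligible transcripts, 5.45% were lower and 2.62% higher in all 6. In edgeR's quasi-likelihood test with Benjamini-Hochberg adjustment over all transcripts, 2 of the 100 fell, where 0.0374% of all transcripts fell, and 0 rose, where 0.00534% rose. At an unadjusted p of 0.05, 47 of the 100 and 5639 of all transcripts passed. With the 5 libraries outside their colony's set left out, 0 of the 100 and 1 of all transcripts were called, while the median over the 100 was -0.95. Leaving out colony 1 or colony 4 also gave 0 of the 100 and 0 of all transcripts, and leaving out colony 3 gave 8 of the 100 and 175 of all.

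The 2 that fell were Transcript_56566 and, outside the rule for named transcripts and named after its values were seen, Transcript_7689. Transcript_56566 stood at 9.11, 3.40 and 29.3 CPM at pH 7.6 in colonies 1, 3 and 4 at week 2, and at 1.61, 2.75 and 3.63 CPM at pH 7.9. At week 4.5 it stood at 2.495, 1.10 and 2.23 CPM at pH 7.6 and at 0.195, 0.293 and 0.0944 CPM at pH 7.9. All 6 libraries of week 4.5 were lower than their partners of week 2, with a log2 fold change of -3.08 ± 0.44 (SE, adjusted p = 0.0283, edgeR). At week 8.5 it was still below its level of week 2 in 6 of 6 pairs, with a log2 fold change of -1.91 ± 0.40 (SE, adjusted p = 0.0399, edgeR). In the fit that leaves out the 5 libraries, the 2 fold changes were -3.70 and -1.83 and no longer passed. Transcript_7689 was lower at week 4.5 in 6 of 6 pairs, with a log2 fold change of -2.12 ± 0.33 (SE, adjusted p = 0.0444, edgeR).

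From week 4.5 to week 8.5 the fold changes had mostly the opposite sign. Of the 100, 91 had a log2 fold change above 0, as did 54.6% of the eligible transcripts. The median was 0.65 over the 100 against 0.04 over all transcripts tested. In 17 of the 100, all 6 libraries of week 8.5 lay above their partner of week 4.5, and in 0 all 6 lay below. Of the eligible transcripts, 4.72% were higher and 4.70% lower in all 6. By edgeR, 8 of the 100 rose, where 0.0551% of all transcripts rose, and 0 fell, where 0.576% of all transcripts fell. At an unadjusted p of 0.05, 45 of the 100 and 4376 of all transcripts passed. The median change of log2(CPM + 0.5) over the 100, as a mean over colonies, was 1.13 at pH 7.6 and 0.08 at pH 7.9, so that the averaged change came mostly from the levels at pH 7.6. Without the 5 libraries, 0 of the 100 and 4 of all transcripts were called, while the median over the 100 was 0.73. Without colony 1 or colony 4, 0 of the 100 and 0 of all transcripts were called, and without colony 3, 1 of the 100 and 15 of all. The largest change was that of Transcript_2635, whose values are given above. It was higher at week 8.5 in 6 of 6 pairs, with a log2 fold change of 3.53 ± 0.56 (SE, adjusted p = 0.0183, edgeR), and 3.72 without the 5 libraries, where it no longer passed. The other 7 had log2 fold changes from 1.29 to 2.38 and were higher in 5 or 6 of 6 pairs.

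**Figure D5:**
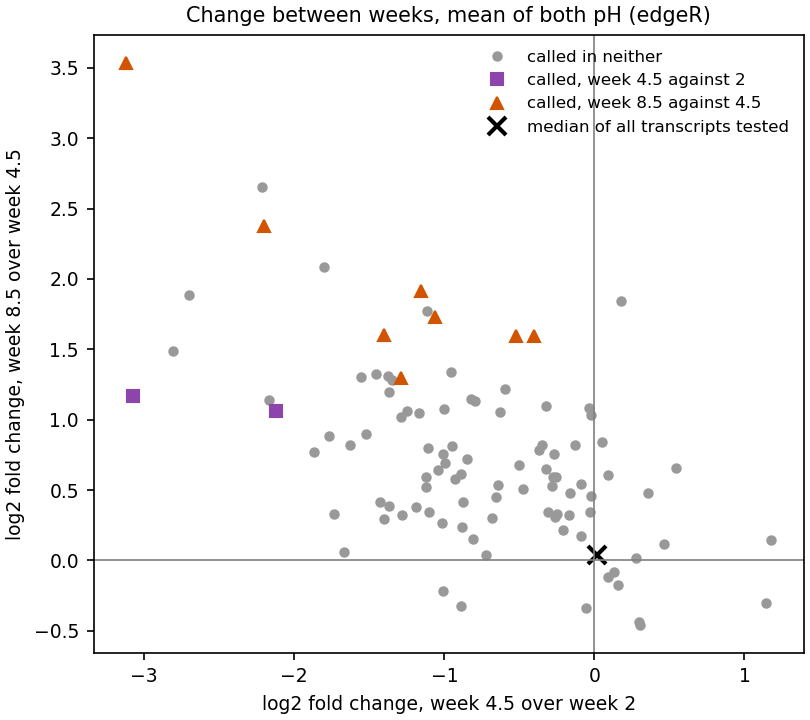
Log2 fold change of each of the 100 transcripts from week 2 to week 4.5 (horizontal) and from week 4.5 to week 8.5 (vertical), averaged over both pH levels, with the median of all transcripts tested as a cross. Most points lie in the upper left, with 86 below 0 on the horizontal axis and 91 above 0 on the vertical one. The 2 axes share the libraries of week 4.5.

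Between week 2 and week 8.5, the median log2 fold change over the 100 was -0.01 against 0.05 over all transcripts tested. It was positive in 50 of the 100 and in 52.5% of the eligible transcripts. By edgeR, 1 of the 100 rose, where 0.173% of all transcripts rose, and 3 fell, where 0.854% of all transcripts fell. The one that rose was Transcript_67365. At week 2 it stood at 6.18, 4.78 and 11.4 CPM at pH 7.6 and at 5.88, 3.24 and 3.86 CPM at pH 7.9 in colonies 1, 3 and 4. At week 8.5 it stood at 19.2, 15.6 and 16.6 CPM at pH 7.6 and at 6.99, 3.97 and 6.56 CPM at pH 7.9. All 6 libraries were higher at week 8.5, and the log2 fold change was 0.83 ± 0.18 (SE, adjusted p = 0.0429, edgeR). The 3 that fell were Transcript_56566 and, named after their values were seen, Transcript_47879 and Transcript_77692, with log2 fold changes of -1.40 ± 0.30 (SE, adjusted p = 0.0414, edgeR) and -1.21 ± 0.23 (SE, adjusted p = 0.0264, edgeR). Both were lower in 6 of 6 pairs. No call was left among the 100 without the 5 libraries, where 207 of all transcripts were called, nor without colony 1 (1 of all) or colony 4 (25 of all). Without colony 3, 1 of the 100 and 168 of all were called.

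The time course at each pH is given as levels only, because the difference between pH levels chose the transcripts. At pH 7.6, 82 of the 100 had their lowest mean level at week 4.5, as did 41.0% of the eligible transcripts, and 65 had their highest at week 8.5, as did 36.8%. At pH 7.9, 72 had their highest at week 2, against 36.2% of those eligible. Their lowest lay at week 4.5 in 51, against 35.3% of those eligible, and at week 8.5 in 37, against 29.1%. From week 4.5 to week 8.5, the median change of log2(CPM + 0.5) over the 100 was 0.63, 1.49 and 1.07 in colonies 1, 3 and 4 at pH 7.6. It was 0.10, -0.12 and 0.34 in the same colonies at pH 7.9. From week 2 to week 4.5, the median change was -0.71, -0.36 and -1.41 at pH 7.6 and -0.34, -0.80 and -0.40 at pH 7.9. Over the eligible transcripts, the same step was -0.23, 0.27 and -0.21 at pH 7.6 and -0.03, -0.10 and 0.04 at pH 7.9. The median of the 100 thus fell to week 4.5 at both pH levels in all 3 colonies. In colony 3 at pH 7.6, 59 of the 100 fell and 41 rose. The step up to week 8.5 was larger at pH 7.6 than at pH 7.9 in all 3 colonies, which is the same as the larger d at week 8.5 given above. At pH 7.9, the libraries of colonies 1 and 3 at weeks 4.5 and 8.5, and that of colony 3 at week 2, were the 5 outside their set. The step from week 2 to week 4.5 at pH 7.9 thus crossed library sets in colonies 1 and 3.

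Colonies were compared over both pH levels and all weeks. The rule asked for a d above 0 in pairs that in part crossed library sets, and so it also limits how far the 100 can differ between sets, and the counts below are a description. Between colonies 4 and 1, 11 of the 100 were lower in colony 4 by edgeR, where 6.6% of all transcripts were lower, and 0 were higher, where 5.35% were higher. The log2 fold changes of the 11 ran from -3.64 to -1.02. When the 5 libraries were left out, 10 of the 100 were lower and 12 were higher, where 5084 and 5760 of 60786 transcripts were. Without colony 3, 15 were lower and 7 were higher, where 6636 and 6987 of 56590 were. Both of these fits thus gave calls in both directions, and the fit without colony 3 still had more of the 100 lower than higher. The largest was that of Transcript_24100. In colony 4 it stood at 5.62, 2.86 and 10.7 CPM at pH 7.6 and at 1.12, 0.991 and 0.751 CPM at pH 7.9 at weeks 2, 4.5 and 8.5. Colony 1 gave 57.6, 58.7 and 45.8 CPM at pH 7.6 and 30.3, 10.01 and 8.48 CPM at pH 7.9 at the same weeks. The log2 fold change was -3.64 ± 0.64 (SE, adjusted p = 0.00504, edgeR), and colony 4 was lower in 6 of 6 pairs. In colony 3 this transcript varied from 0.870 to 39.5 CPM.

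Between colonies 4 and 3, 3 of the 100 were lower in colony 4, where 2.67% of all transcripts were lower, and 0 were higher, where 1.42% were higher. The fit without the 5 libraries gave 8 lower and 5 higher, where 4421 and 4092 of 60786 transcripts were called. The one named by rule was Transcript_35003, at 8.76 to 17.2 CPM in the 6 libraries of colony 4 and at 10.3 to 68.9 CPM in those of colony 3, with overlap. Its log2 fold change was -1.63 ± 0.32 (SE, adjusted p = 0.0162, edgeR), with colony 4 lower in 6 of 6 pairs. The other 2, named after their values were seen, were Transcript_73549 with a log2 fold change of -1.25 ± 0.31 (SE, adjusted p = 0.0424, edgeR) and Transcript_3196 with -1.25 ± 0.24 (SE, adjusted p = 0.0152, edgeR). All 3 were also among the 11 that were lower in colony 4 than in colony 1, a comparison that shares the libraries of colony 4. Between colonies 3 and 1, 0 of the 100 and 0.0% of all transcripts were called by edgeR. At an unadjusted p of 0.05, 10 and 3470 passed. DESeq2 called 0 of the 100, and as its count over all transcripts is not given, nothing is read from that 0. With the 5 libraries left out, 3 of the 100 were called, all higher in colony 3, where 5305 of 60786 transcripts were higher and 4103 were lower.

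The 100 transcripts also varied together within each pH. Over the 9 libraries of pH 7.6, the median Pearson correlation of log2(CPM + 0.5) between 2 of the 100 was 0.41, against 0.05 between eligible transcripts. Over the 9 libraries of pH 7.9 it was 0.38 against 0.02. The 9 libraries share colonies, weeks and library sets. The same log2 levels also formed the d by which the 100 were chosen. The correlations are therefore not independent of the rule, and they are given as a description. A correlation of at least 0.9 within both pH levels was found in 8 of 4950 pairs among the 100, or 0.162%, against 0.0548% of eligible pairs, and these involved 15 transcripts. The table does not say whether transcripts of such a pair come from the same gene.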

How the data were processed

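RNA of coral polyps was sequenced as single-end reads, per the labels' protocols. The deposited values are raw read counts for each transcript, with 2 lanes for each of 18 libraries. The submitters' processing notes name Trimmomatic 0.36, cutadapt 1.15, FastQC and DESeq2. Which aligner and which transcript set were used is not given in the sources used here, so reads of near-identical transcripts, alleles or isoforms may have been split between numbers.

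The 36 lanes were summed to 18 libraries. The chi-square statistic of 2 lanes per degree of freedom was 0.986 to 1.31. CPM were computed from library totals, with a pseudocount of 0.5 on the log2 scale. Tests used edgeR 4.0.16 (R 4.3.3) on the counts, with filterByExpr (minimum count 10, 56223 transcripts, 0.195% of counts outside it, all 100 described ones inside it) and TMM factors of 0.825 to 1.17. Quasi-likelihood F tests were fitted to all 18 libraries with pH-by-week means and colony as replicate block, or with colony-by-pH means and week. Benjamini-Hochberg adjustment was over all transcripts tested, and calls were made at an adjusted p of 0.05. DESeq2 1.42.0 was an alternative. SE were taken from the log2 fold change and the F value.

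The block follows the labels, in which each colony has fragments at both pH levels. The deviations of the 2 libraries of a colony and week from their group means correlated above 0.1 in 5 of 9 pairs, over a range from -0.411 to 0.780. In the pairs within one library set, the correlations ran from 0.345 to 0.780. In the pairs that crossed library sets they were below 0, except in colony 3 at week 2, at 0.279. Library sets come from average linkage on 1 minus Spearman's correlation, cut at 3 sets.

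The transcripts, tests and library sets were chosen with earlier results of these data known. Named transcripts follow a rule: the 2 with the largest mean d, the highest mean CPM and the smallest SD of d, the largest rise and fall of d from week 2 to week 8.5, the largest excess of d in each colony, the largest called change in each direction between weeks or colonies with the same sign in all 6 pairs, and ranks 100 and 101. On simulated counts for the comparison of weeks 8.5 and 2 (54706 transcripts tested), calls were made for 6 of 100 simulated 2-fold changes and for 86 of 100 simulated 4-fold changes, with 2 false calls. The changed transcripts were drawn only from those above a lower limit on mean count, so the rates do not cover scarcer ones. The simulated counts held no effect of colony, pH or library set. All transcripts were given the same dispersion, the spread of counts between libraries. These rates may therefore not hold for the measured libraries.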

Additional observations from a re-analysis of the deposited data

Results flagged for a closer look

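In 47 sets of 9 values, the highest or lowest was compared with the rest by Dixon's test at the 95% level. These sets of values share libraries and transcripts, so no number expected by chance is given. In 2 of the 47, a value stood apart. Both concern the differences d on which the transcripts were chosen, and they are given as values only. The median d over the 100 transcripts was 2.94 in the pair of colony 3 at week 8.5, above the 8 other pairs, whose medians ran from 0.53 to 1.69. The d of Transcript_65541 was 1.86 in colony 4 at week 2, above its 8 other pairs, which ran from 0.30 to 1.01.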

How the results depend on the processing

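The tests are limited by 3 libraries for each pH and week and by the 5 that lay outside their colony's set. Counts are of the 100, followed by those of all transcripts tested. With DESeq2 in place of edgeR, the calls were 95 and 613 for higher at pH 7.6. They were 32 and 989 for weeks 4.5 against 2, 14 and 1974 for 8.5 against 2, and 17 and 1245 for 8.5 against 4.5. They were 11 and 6048 for colonies 4 against 3, 2 and 39 for a pH effect differing between weeks, and 2 and 5919 for one differing between colonies. A fit with library sets replacing colonies gave 87 and 504 for higher at pH 7.6, and 18 and 471, 11 and 2176, and 15 and 1517 for the weeks in that order. Without the 5 libraries there were 10 and 22 for higher at pH 7.6, 0 and 1, 0 and 207, and 0 and 4 for the weeks, 22 and 10844 for colonies 4 against 1, 13 and 8513 for 4 against 3, and 3 and 9408 for 3 against 1. With no replicate block, 1 of the 100 in place of 2 and 15 of all in place of 24 were called between weeks 4.5 and 2. That fit called 36 of the 100 for pH, 3 for weeks 8.5 against 2 and 6 for 8.5 against 4.5. Only the count for weeks 4.5 against 2 moved by over 1.5 times. For the other 3, counts over all transcripts are not given, and nothing is read from them. Leaving out 1 colony at a time gave, of the 100, 0 to 43 for pH (0 of the 100 and 0 of all without colony 4, 43 and 200 without colony 3), 0 to 8 for weeks 4.5 against 2, and 0 to 1 for each of the other 2 week comparisons. It gave 22 for colonies 4 against 1 (13623 of all), 2 for 4 against 3 (1308 of all) and 0 to 1 for a pH effect differing between colonies. The last is given without a count over all transcripts, and nothing is read from it. The causes of these shifts were not tested. The pH effect by colony could not be fitted without the 5 libraries, which leave colony 3 with none at pH 7.9.

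The choice of the 100 rests on which pairs are used. Leaving out 1 colony gave 394 to 2172 transcripts higher in all 6 remaining pairs, and the 100 then chosen shared 34 to 73 with those described. Pairs of the same library set and week gave 1147 and shared 46, and the 4 pairs within a set gave 5893 and shared 33. With TMM-scaled CPM, 88 of the 100 were higher at pH 7.6 in all 9 pairs. For those of the 100 named for d, mean CPM or rank, the mean d kept its sign in all 98 alternatives run. It also moved by less than its SD over pairs in all of them. Transcripts named only for a called change between weeks or colonies were not included. Most of the settings could not have changed the sign. Changed limits on mean CPM leave d as it is. Leaving out a colony, or keeping only pairs within a set, averages values of d that the rule made positive. The SD was also wide for some, at 1.93 for Transcript_2635, so little is read from this outcome. For counts and medians, 41 alternatives were classed as moved and 51 as the same. Of 46 alternatives for the fold changes of named transcripts between weeks or colonies, 30 kept the call and 16 lost it at the same sign. The medians and counts without colony 3, or without its pair of week 8.5, were chosen after seeing the data.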
